A study of Homo sapiens with 10 samples.

Results

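The response of hTERT RPE-1 cells to 30 min of merbarone was described from 6 polyadenylated RNA libraries, out of 10 in the series. They were chosen by their labels alone: 3 libraries from cells given merbarone at 200 µM for 30 min, and 3 from cells given the vehicle DMSO for 30 min. All 6 came from wild-type hTERT RPE-1 cells, a human retinal pigment epithelium line made permanent with telomerase, and treated and vehicle cells alike had first spent 48 h in 0.1% serum. Libraries with the same replicate number were compared as pairs, and a difference is merbarone minus DMSO in log2(RPKM + 1) (reads per kilobase of gene, scaled to library depth) unless another scale is named. The 4 other libraries formed a separate experiment, merbarone at 200 µM for 2 h against untreated cells (2 and 2), and are used only where the early effect was compared with the later one. The p-values of the paired fit measure the spread of the difference among the 3 pairs, not the larger spread between libraries. The labels do not say that replicates were separate cultures, so either spread may be technical.

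Topoisomerase II passes a DNA duplex through a break in another and so relieves the supercoils that transcription and replication build up. Merbarone is a catalytic inhibitor of the enzyme. In cells made quiet by low serum, immediate-early genes are the first to be transcribed after a signal, without new protein synthesis. Many encode transcription factors of the FOS, JUN and EGR families. Others encode proteins that limit the signal, such as DUSP phosphatases, which switch off MAP kinases, and ZFP36 proteins, which bring AU-rich mRNAs to decay. Their mRNAs are themselves short-lived, so their levels can rise and fall within an hour.

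The response at 30 min was restricted in number and large in a few genes. The test covered 6500 genes whose 6 libraries averaged 1 RPKM or more, and 8 of them passed an adjusted p of 0.05 in limma's paired fit, which is 0.123% of genes tested. Of the 8, 7 rose, namely FOS, FOSB, EGR1, DUSP1, ZFP36, JUNB and ZFP36L1, all on the immediate-early lists, and 1 gene, HRCT1, fell. In each of the 8 the 3 treated libraries lay beyond all 3 vehicle libraries. FOS and FOSB, with DMSO means of 0.992 and 0.283 RPKM, met the level filter only through their merbarone libraries. HRCT1, with a mean of 0.913 RPKM after merbarone, met it only through its DMSO libraries. Without the pairing only FOS passed, 1 gene or 0.0154% of those tested. Counted in RPM, which like RPKM scales reads to library depth but leaves gene length out, the 7 genes that rose together made up 281, 251 and 210 RPM in DMSO replicates 1, 2 and 3, and 969, 819 and 627 RPM in the merbarone libraries of the same numbers.

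FOS, which pairs with JUN proteins to form the AP-1 transcription factor, changed most. It measured 0.489, 0.839 and 1.65 RPKM in DMSO replicates 1, 2 and 3 and 62.1, 48.7 and 38.9 RPKM after merbarone. The order of the replicates was opposite in vehicle and drug: replicate 1 was lowest in DMSO and highest after merbarone, and replicate 3 the reverse. The log2 fold change was 4.69 ± 0.256 (SE, 3 pairs; limma adjusted p = 0.00506, and 0.00549 without the pairing). FOS lies on the plus strand of chromosome 14, 75745529 to 75748933 (GRCh37, as are the gene positions that follow), and 45 to 7229 reads stood behind its values.

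FOSB, a second FOS family member, measured 0.0992, 0.272 and 0.477 RPKM in DMSO and 12.9, 17.3 and 6.94 RPKM after merbarone. Its replicate 3 was again highest in DMSO and lowest after treatment. The log2 fold change was 3.31 ± 0.264 (limma adjusted p = 0.0188, and 0.0755 without the pairing). The added 1 RPKM understates the change of a gene this low, and on recovered reads the log2 change was 5.35 for FOSB and 5.55 for FOS (limma voom). FOSB (chromosome 19, 45971253 to 45978437, plus strand) lies inside the span of ERCC1, a DNA repair endonuclease gene on the opposite strand, and the strand setting of the read counting is not given in the sources used here. ERCC1 gained 93.2, 118 and 41.7 RPM in pairs 1, 2 and 3, and FOSB gained 92.2, 123 and 46.5. The difference of ERCC1, 0.59, therefore cannot be told apart from reads of FOSB. The other FOS family members did not pass the threshold and overlapped between groups: FOSL1 lay at 20.6 to 24.7 RPKM in DMSO and 19.8 to 24.8 RPKM after merbarone (difference -0.07 ± 0.0468), and FOSL2 differed by -0.04 ± 0.0363.

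EGR1, a zinc-finger transcription factor (chromosome 5, 137801168 to 137804992, plus strand), measured 15.9, 5.16 and 3.36 RPKM in DMSO and 72.8, 37.0 and 28.9 RPKM after merbarone. DMSO replicate 1 was well above the other 2 vehicle libraries, and merbarone replicate 1 was likewise the highest of the treated ones. The paired log2 fold change was 2.51 ± 0.121 (limma adjusted p = 0.00506). Without the pairing EGR1 was not called (limma adjusted p = 1.00). EGR2 and EGR3 lay below the level filter, with 4 to 17 and 34 to 68 reads per library.

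JUNB, an AP-1 partner of FOS (chromosome 19, 12902300 to 12904129, plus strand), measured 11.4, 11.8 and 7.55 RPKM in DMSO and 32.5, 24.1 and 22.6 RPKM after merbarone (1.29 ± 0.100, limma adjusted p = 0.0188, and 0.661 without the pairing). It lies inside the span of HOOK2 on the other strand, which gained 32.0, 24.4 and 24.9 RPM in the 3 pairs, beside 38.3, 22.4 and 27.4 for JUNB. JUN, the founding AP-1 partner, measured 39.3, 35.5 and 26.7 RPKM in DMSO and 65.2, 44.1 and 46.0 RPKM after merbarone. Its groups did not overlap, but it was not called on RPKM (0.60 ± 0.0936, limma adjusted p = 0.377). JUND was the most variable of the family, with pairs in both directions (48.9 to 70.6 RPKM in DMSO, 58.0 to 69.3 after merbarone, difference 0.10 ± 0.137).

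**Figure D1:**
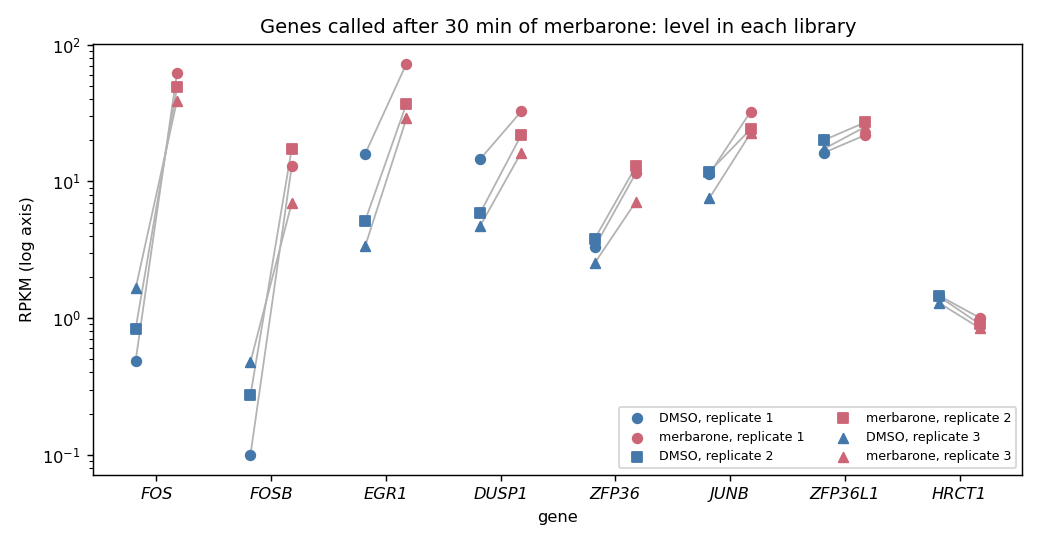
Level in RPKM (log axis) of the 8 genes called after 30 min, in each of the 3 DMSO (blue) and 3 merbarone (red) libraries, with grey lines joining libraries of the same replicate number. All lines rise except those of HRCT1, and the DMSO points of EGR1 and DUSP1 spread more than those of ZFP36L1.

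Among the genes that limit signals, DUSP1 and ZFP36 moved by similar amounts. DUSP1, a nuclear phosphatase that inactivates MAP kinases (chromosome 5, 172195099 to 172198198, minus strand), measured 14.5, 5.83 and 4.69 RPKM in DMSO and 32.5, 21.8 and 16.3 RPKM after merbarone. As with EGR1, replicate 1 was highest in both arms. The log2 fold change was 1.49 ± 0.117 (limma adjusted p = 0.0188, and 1.00 without the pairing). DUSP6, which acts on ERK in the cytoplasm, lay at 7.71 to 7.96 RPKM in DMSO and 9.40 to 10.9 RPKM after merbarone, without overlap, and was not called (0.35 ± 0.0530, limma adjusted p = 0.344). DUSP4 and DUSP5 differed by 0.04 and 0.06. ZFP36 (chromosome 19, 39897487 to 39900052, plus strand) measured 3.31, 3.80 and 2.52 RPKM in DMSO and 11.6, 12.9 and 7.12 RPKM after merbarone (1.43 ± 0.0736, limma adjusted p = 0.00506, and 0.661 without the pairing). ZFP36L1 (chromosome 14, 69254377 to 69262970, minus strand) measured 16.2, 20.1 and 17.3 RPKM in DMSO and 21.9, 27.1 and 25.1 RPKM after merbarone. All 3 of its pairs rose by a similar step (0.44 ± 0.0419, limma adjusted p = 0.0418, and 1.00 without the pairing). The third family member, ZFP36L2, was higher in all 3 pairs but overlapped between groups (0.21 ± 0.0704, not called).

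The calls did not all rest on every pair. Without replicate 3, DUSP1, JUNB, ZFP36L1 and HRCT1 were no longer called (limma adjusted p = 0.119, 0.0876, 0.162 and 0.119). Without replicate 1, ZFP36L1 and HRCT1 were lost (limma adjusted p = 0.211 and 0.0594). FOS, FOSB, EGR1 and ZFP36 were called whichever pair was left out. Other named genes that the 3 pairs did not call on RPKM were called with a pair left out: JUN (0.74), IER2 (0.53) and PLK3 (0.35) without replicate 2 (limma adjusted p = 0.000958, 0.00455 and 0.0347), GEM (0.50) without replicate 1 (0.0411) and ERCC1 (0.72) without replicate 3 (0.0195). HRCT1 (chromosome 9, 35906199 to 35907133, plus strand) was the only gene to fall past the threshold. It measured 1.46, 1.44 and 1.29 RPKM in DMSO and 1.00, 0.899 and 0.841 RPKM after merbarone (-0.33 ± 0.0260, limma adjusted p = 0.0188). Only 28 to 47 reads per library stood behind it, and on reads its difference was not called (limma voom adjusted p = 1.00).

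To show what lies upstream of genes that moved together, the 130 bases before the first listed RefSeq start site (GRCh38.p14) are given. They are shown for the 5 called genes that hold a searched motif there. ZFP36L1, which holds a motif only before a second listed start, is not shown. Capitals mark matches on either strand to the TATA box TATAAA, the cyclic AMP response element (CRE) TGACGTCA, or the CArG box, the sequence bound by serum response factor.
FOS: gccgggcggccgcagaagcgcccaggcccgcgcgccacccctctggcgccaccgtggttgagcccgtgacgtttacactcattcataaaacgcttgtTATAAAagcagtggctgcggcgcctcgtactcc
FOSB: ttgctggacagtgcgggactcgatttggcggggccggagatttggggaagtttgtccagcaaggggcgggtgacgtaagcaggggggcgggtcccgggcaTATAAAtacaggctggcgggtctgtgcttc
JUNB: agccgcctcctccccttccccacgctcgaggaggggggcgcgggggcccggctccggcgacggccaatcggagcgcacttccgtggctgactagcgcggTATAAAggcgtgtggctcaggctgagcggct
DUSP1: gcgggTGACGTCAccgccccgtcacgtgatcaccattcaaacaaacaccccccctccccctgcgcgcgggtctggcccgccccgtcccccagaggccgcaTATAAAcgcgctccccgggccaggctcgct
EGR1: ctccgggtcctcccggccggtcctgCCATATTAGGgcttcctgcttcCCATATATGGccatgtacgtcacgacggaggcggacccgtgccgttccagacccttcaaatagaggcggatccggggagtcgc
The windows are chr14:75278698-75278827 for FOS, chr19:45467866-45467995 for FOSB, chr5:138465349-138465478 for EGR1 and chr19:12791356-12791485 for JUNB, all on the plus strand, and chr5:172771196-172771325 on the minus strand for DUSP1. RefSeq windows of 300 bases, 250 before to 50 after the start, were matched by symbol for 7 of the 8 called genes and for 5135 genes tested. FOS, FOSB, DUSP1 and JUNB, 4 of the 7, held TATAAA, with its first base 33 to 30 bases before the start. Shares of genes tested count a match on either strand anywhere in any 300-base window of a gene. By this count TATAAA was in 6.91% of genes tested, and no share at that position was computed. EGR1 held 2 CArG boxes, at -105 and -83, a motif found in 1.69% of genes tested. The CRE was present in DUSP1 (-125) and in a second start of ZFP36L1 (-52), and in 3.99% of genes tested. The AP-1 site TGANTCA was in 0 of the 7 windows and in 6.37% of genes tested. These matches describe letters in the windows and are not measured binding sites. Sequence more than 250 bases before a start was not searched, so a gene without a match may hold the motif further upstream.

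The length behind the deposited values lay within 1% of the whole gene, introns included, for 75.3% of 17234 genes, so transcripts of long genes fall under the 1 RPKM filter at the same number of reads. Left out this way were 7516 genes that averaged 10 reads or more, with a median length of 60625.5 bp against 17766 bp for the genes tested. The same paired model run with limma's voom on the recovered whole reads, over 14013 genes, called 13, all higher. They included the 7 genes that had risen on RPKM. The others were ATF3, NR4A2, VMP1, JUN, GEM and ERCC1. ATF3, a stress-induced partner of JUN, rose from 2.70, 2.87 and 2.72 to 19.9, 25.5 and 8.79 RPM in pairs 1, 2 and 3 (log2 2.64, limma voom adjusted p = 0.00187). NR4A2, an orphan nuclear receptor, rose from 3.49, 8.34 and 5.49 to 7.49, 22.9 and 10.4 RPM (log2 1.22, limma voom adjusted p = 0.00306). VMP1, a membrane protein of autophagosome formation, measured 94.3, 129 and 101 RPM in DMSO and 120, 177 and 129 after merbarone (log2 0.39, limma voom adjusted p = 0.00789). GEM, a small GTPase, rose by 0.61 (limma voom adjusted p = 0.00336) and JUN by 0.61 (limma voom adjusted p = 0.0313) on this scale. NR4A1, the other receptor of that family often induced early, was higher in all 3 pairs and was not called (log2 1.20, limma voom adjusted p = 0.28).

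**Figure D2:**
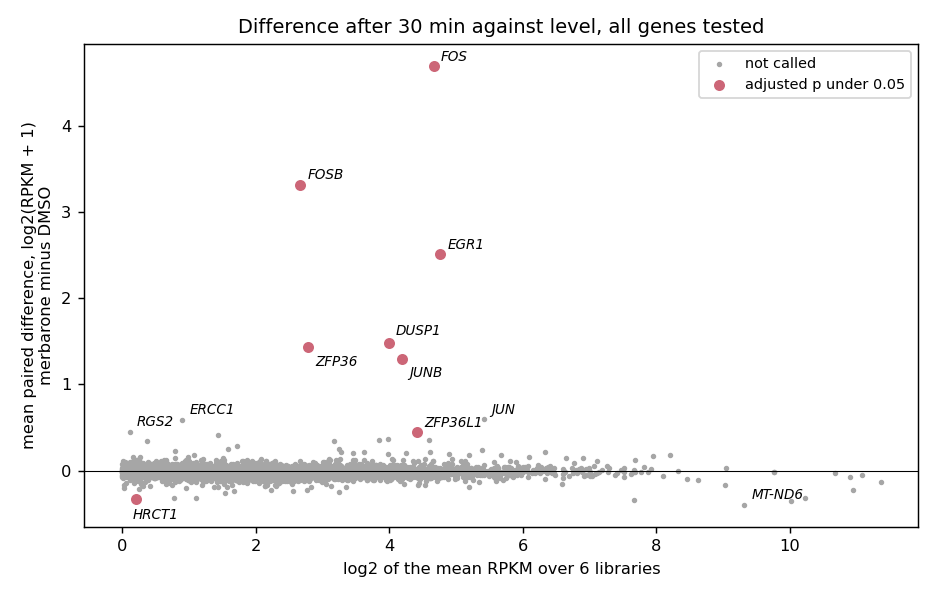
Mean paired difference in log2(RPKM + 1), merbarone minus DMSO, against the log2 of the mean RPKM for the 6500 genes tested, with the 8 called genes in red. FOS, FOSB and EGR1 stand highest, HRCT1 is the red point below 0, and most genes lie within a narrow band around 0.

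Away from these genes the differences were small. The median difference over all genes tested was -0.01, and the 5th and 95th percentiles were -0.08 and 0.06. The median absolute difference was 0.03. An absolute difference over 0.1 was found in 4.40% of genes, 105 higher and 181 lower. One over 0.25 was found in 0.400% of genes, 18 higher and 8 lower. Above 0.5 there were 8 genes, all higher, and above 1 there were 6, all higher. The 8 called genes held 74.4% of the sum of squares due to treatment, and FOS alone 36.0%. An unadjusted p below 0.05 was found for 208 genes, 3.20% of those tested, of which 96 were higher and 112 lower. On the immediate-early lists lay 24 of the 208, all of them higher.

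The pairing mattered because libraries with the same number were alike. The median absolute difference per gene was 0.0410, 0.0594 and 0.0403 in pairs 1, 2 and 3. Between 2 DMSO libraries it was 0.0800 to 0.123, and between 2 merbarone libraries 0.0699 to 0.114. Between merbarone and DMSO libraries of other numbers it was 0.0648 to 0.131, at its lowest close to pair 2. Replicate number accounted for 76.4% of the total sum of squares over genes, treatment for 13.8% and the remainder for 9.77%. The median SE of a difference was 0.0367 with the pairing and 0.0700 without it. All 3 pairs were higher in 567 genes (8.72%) and lower in 844 (13.0%).

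**Figure D3:**
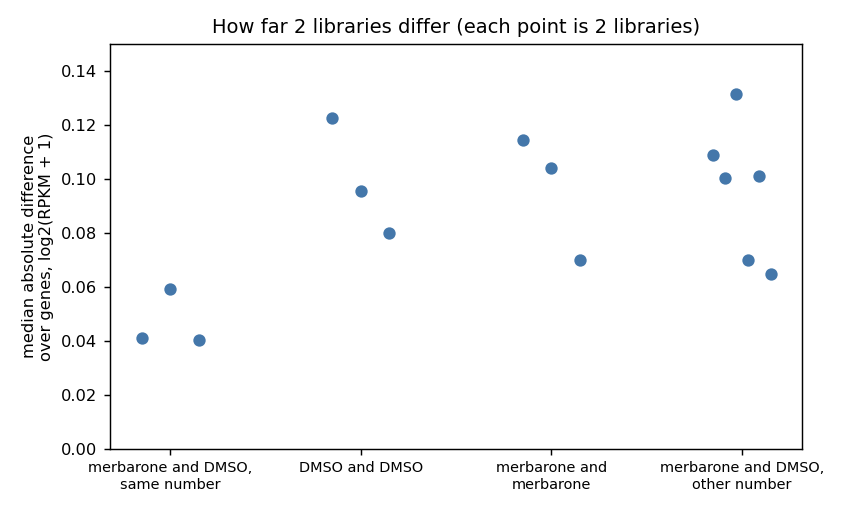
Median absolute difference over 6500 genes in log2(RPKM + 1) between 2 libraries, one point per combination of libraries. The 3 comparisons of same-numbered merbarone and DMSO libraries lie at 0.0403 to 0.0594, below every comparison of 2 libraries of the same treatment. Those of merbarone and DMSO libraries with other numbers lie at 0.0648 to 0.131.

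Small shifts of the many genes followed base composition, with a sign that differed between pairs. Across 6380 genes with a GC value, Spearman's rho between a gene's GC content and its difference was -0.440 in pair 1, -0.466 in pair 2 and 0.342 in pair 3. These are correlations across genes, which share libraries and are not independent replicates, so no p is given. On recovered reads, genes under 5 kb had a median difference of -0.02 and genes of 400 kb or more 0.02. In pair 3 both signs were reversed (0.04 and -0.01). With the dependence on GC removed from each library, 8 genes were called, the same genes as before. The part of GC in smaller differences was not tested further.

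Among 52 tested genes of the immediate-early lists (72 in the tables), 7 were called higher and 0 lower, beside 0.123% of all genes tested called in either direction. In all 3 pairs 27 were higher and 1 was lower, beside 8.72% and 13.0% of all genes tested. Their median difference was 0.10 beside -0.01 for all genes. The merbarone libraries lay wholly above the vehicle libraries for 10 of the 52, against 0.877% of all genes tested (57 genes), and wholly below for 0, against 1.40% (91 genes). The lists were chosen with earlier results of these data known, so these counts describe the lists and are not independent evidence. The 10 were the 7 called genes with JUN, DUSP6 and KLF2. KLF2, a zinc-finger factor best known from endothelium, lay at 10.7 to 15.6 RPKM in DMSO and 16.1 to 19.9 RPKM after merbarone (0.36 ± 0.0679, limma adjusted p = 0.606).

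The 24 further genes outside the named families, among them GEM, PLK3, PPP1R15A, CCN1 and CCN2, had a median of 0.11 with 0 called. In all 3 pairs 15 of the 24 were higher, beside 8.72% of all genes tested. PLK3, a stress kinase, differed by 0.383, 0.172 and 0.311 in the 3 pairs, with overlap between groups (0.29 ± 0.0476, limma adjusted p = 0.449). PPP1R15A, which directs a phosphatase to eIF2α, differed by 0.20 ± 0.0378, with steps of 0.211, 0.190 and 0.193 in the 3 pairs although the libraries themselves overlapped. ID1, an inhibitor of basic helix-loop-helix factors and a target of BMP signalling, differed by 0.36 ± 0.0889, most in pair 3. In contrast, SRF, the factor that binds CArG boxes, differed by -0.02 ± 0.0422, KLF10 by -0.05 ± 0.0412, and IER5 by -0.11 ± 0.0506. The direction for SRF was not stable to the removal of GC dependence or of replicate 2. IER2 differed by 0.35 ± 0.109 and IER3 by 0.12 ± 0.100, neither called. IER2 was higher by 0.553 and 0.502 in pairs 1 and 3 and by 0.00586 in pair 2, and without replicate 2 it was called, as given above. MYC, a growth regulator often induced by serum, differed by 0.11 ± 0.0421 (not called).

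Among other signalling outputs, 0 genes were called. The 17 tested cytoskeletal targets of SRF, such as ACTA2, had a median of 0.01 with 2 genes higher and 2 lower in all pairs. Of 8 cytokine and NF-kB feedback genes, 0 were called and 4 were higher in all pairs. In 2 of them, IL1B and NFKBIE, the merbarone libraries lay wholly above the vehicle libraries, beside 0.877% of all genes tested. Of 3 Sprouty, SPRED and ETV feedback genes 2 were higher in all pairs, as were 2 of 2 RGS genes, beside 8.72% of all genes tested. IL1B, an inflammatory cytokine, lay at 2.30 to 3.03 RPKM in DMSO and 3.26 to 3.45 RPKM after merbarone without overlap (0.26 ± 0.0669, limma adjusted p = 1.00). SPRY2, a feedback inhibitor of receptor tyrosine kinase signalling, was higher in all 3 pairs by 0.21 ± 0.0441 (limma adjusted p = 0.725). RGS2, which limits G-protein signalling, measured 0.522, 0.866 and 0.849 RPKM in DMSO and 1.04, 2.06 and 1.16 RPKM after merbarone, without overlap (0.45 ± 0.0862, limma adjusted p = 0.606). It met the level filter only through its merbarone libraries.

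The transcripts of the drug's targets did not pass the threshold, and their groups overlapped. TOP2A measured 12.3, 15.9 and 17.5 RPKM in DMSO and 12.5, 18.5 and 16.5 RPKM after merbarone (0.05 ± 0.0606), with pair 3 opposite in sign to the other 2. TOP2B measured 2.42, 2.49 and 2.79 RPKM in DMSO and 2.58, 2.61 and 2.62 RPKM after merbarone (0.01 ± 0.0379). TOP1, the type I enzyme, lay below the filter at 0.729 to 0.921 RPKM in DMSO and 0.732 to 0.855 RPKM after merbarone. The 9 tested topoisomerases and genes for repair of their lesions had 0 called and a median of 0.02. LIG4, the ligase of end joining, had the largest difference among them, 0.08.

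Lists for DNA damage and stress stayed close to the median of all genes. Over all genes tested, 8.72% were higher and 13.0% lower in all pairs. Of 15 p53 targets 0 were called, 2 were higher and 2 lower in all pairs, and the median of -0.004 changed sign under median scaling. Of 17 integrated stress response genes 0 were called, 3 were higher and 1 lower in all pairs, and the median of -0.01 was 0.002 under median scaling. Of 17 genes of the unfolded protein response 0 were called and 3 were higher in all pairs. Of 15 heat shock chaperones 0 were called and 3 were lower in all pairs, and HSPA1A, an inducible HSP70, differed by -0.08. The 11 NRF2 targets, 16 hypoxia and glycolysis genes and 22 genes of cholesterol and fatty acid synthesis had 0 called and medians within 0.01 of 0.

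The counts that follow stand beside 8.72% of all genes tested higher and 13.0% lower in all 3 pairs. The 27 mitotic genes had 0 called and 0 with all 3 pairs in 1 direction. Their pair medians were 0.02, 0.09 and -0.07, so that pair 3 was opposite to the others. The 21 genes of G1/S and replication had 0 called and a median of -0.01. Of 16 genes for RNA polymerase II pausing and elongation 0 were called and 6 were lower in all pairs, with a median of -0.03. The 6 included MEPCE, which caps the 7SK RNA (-0.09), and SUPT6H, an elongation factor (-0.06). CCNT1, the cyclin of P-TEFb, was the exception that was higher in all 3 pairs, by 0.09. Of 15 collagen and matrix genes 0 were called and 8 were higher in all pairs, with a median of 0.04, and FN1, fibronectin, differed by 0.12 ± 0.0415. Of 13 interferon-stimulated genes 0 were called and 4 were lower in all pairs, with a median of -0.07. ISG15, a ubiquitin-like protein, differed by -0.22 ± 0.0833, but by 0.03 in pair 3.

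**Figure D4:**
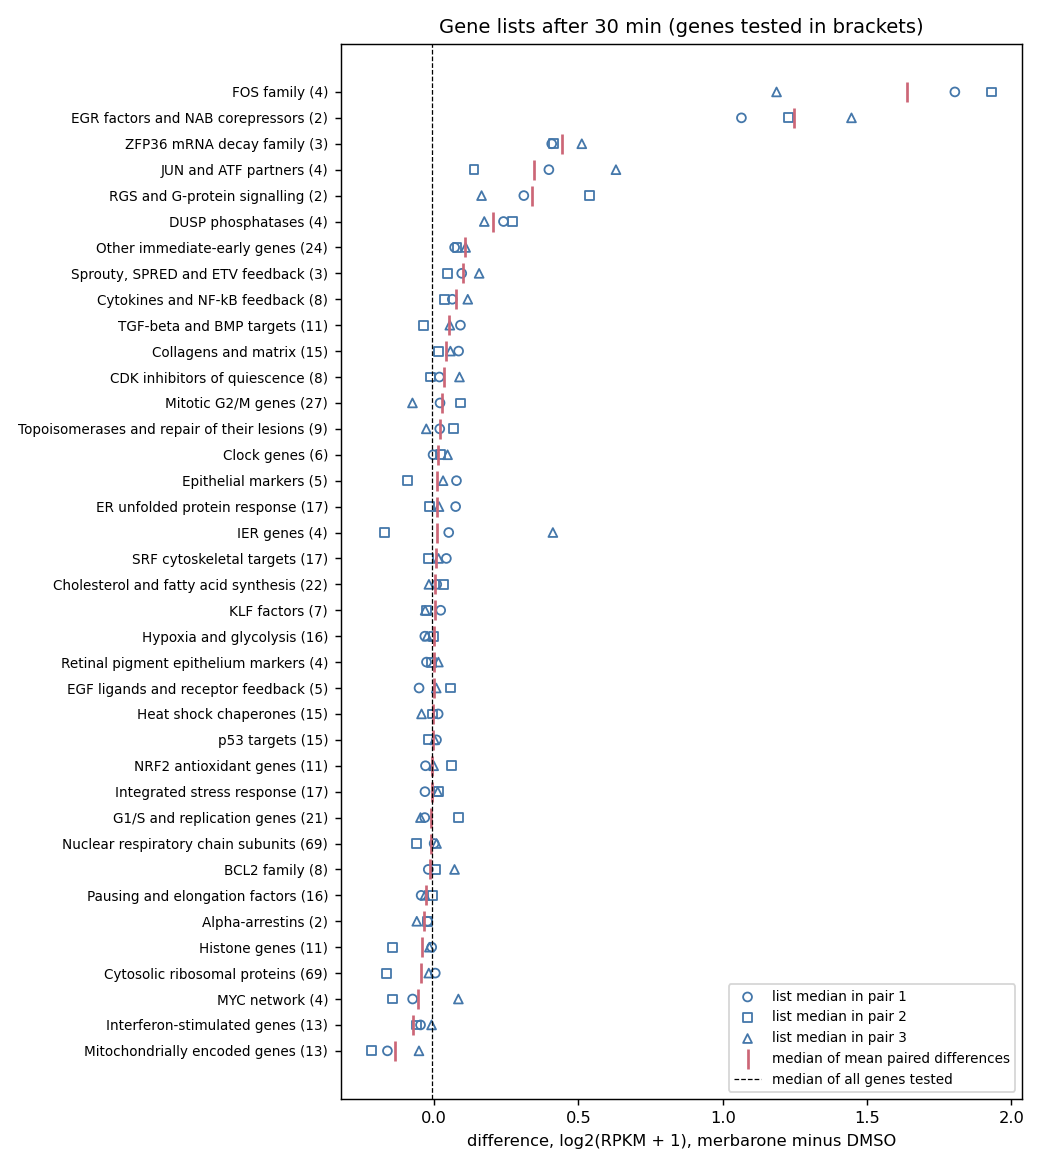
Median difference in log2(RPKM + 1), merbarone minus DMSO, of 38 gene lists in each of the 3 pairs (open symbols), with the median of the members' mean differences (red bar) and the median of all genes (dashed line). The FOS, EGR, ZFP36 and JUN lists lie to the right in all 3 pairs and the mitochondrially encoded genes to the left in all 3, while most lists have pairs on both sides of the line.

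The largest uncalled falls were in mitochondrially encoded mRNAs. MT-ND6, a complex I subunit encoded on the light strand, measured 820, 733 and 630 RPKM in DMSO and 590, 513 and 548 RPKM after merbarone, without overlap (-0.40 ± 0.0694, limma adjusted p = 0.574). MT-ND5, MT-ND2 and MT-ND1, complex I subunits encoded on the heavy strand, also did not overlap, with differences of -0.35, -0.34 and -0.32. Of the 13 mitochondrially encoded genes 4 thus lay wholly below the vehicle libraries, beside 1.40% of all genes tested. All 13 had a negative mean difference, from -0.40 to -0.02, and 0 were called. In all 3 pairs 8 were lower, beside 13.0% of all genes tested. The median was -0.13, and it was -0.16, -0.22 and -0.05 in pairs 1, 2 and 3. With quantile normalization it was -0.03. Together these genes took 14824, 13570 and 12944 RPM in DMSO and 12768, 11598 and 12466 in merbarone. The cytochrome oxidase subunit MT-CO1 and the adenosine triphosphatase subunit MT-ATP8 differed by only -0.02. In bulk RNA, fewer cells of a type and less RNA per cell cannot be told apart.

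RPL12, a cytosolic ribosomal protein, lay at 2.68 to 4.13 RPKM in DMSO and 2.26 to 2.96 RPKM after merbarone (-0.26 ± 0.0461, limma adjusted p = 0.579). RPSA, RPL10A and RPS2 differed by -0.31, -0.24 and -0.23. Of 69 ribosomal protein genes 0 were called, and the median was -0.04. In all pairs 17 were lower and 3 higher, beside 13.0% and 8.72% of all genes tested. The pair medians were 0.004, -0.17 and -0.02, so the list's difference came mostly from pair 2. Ribosomal protein genes have processed copies elsewhere in the genome, and reads could be split among them. Nuclear-encoded respiratory chain subunits (69 genes) had a median of -0.01. H2BC21, a histone gene with a polyadenylated transcript, was lower in all 3 pairs (-0.20 ± 0.0278, limma adjusted p = 0.284).

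The identity of the cells was checked on marker lists. VIM, the mesenchymal filament gene that cultured pigment epithelium expresses, measured 884 RPKM on average in DMSO and 864 RPKM after merbarone. It was on a list of 10 epithelial markers, of which only 5 passed the filter and 0 were called. The summed level of the 10 was 586, 1129 and 1007 RPKM in DMSO replicates 1, 2 and 3, and 620, 947 and 1095 RPKM after merbarone. Of 15 pigment epithelium markers 4 passed the filter, among them OTX2 and BEST1, of which BEST1 overlaps the gene of the ferritin chain FTH1 and may share its reads. RPE65, RLBP1 and TYR had group means under 0.05 RPKM, and CRX and DCT were at 0 in all 6 libraries, so the mature pigment epithelium programme was largely missing. The summed level of the 15 was 15.2 to 22.3 RPKM in DMSO and 14.9 to 22.0 RPKM after merbarone. Of the markers of other cell types, 4 of 12 for leukocytes (CD3E, CD3D and MS4A1 among them), 1 of 7 for endothelium (CDH5), 2 of 7 for keratinocytes (KRT1 and KRT5) and 3 of 12 for neural retina (RCVRN among them) were at 0 in all 6. Others were expressed, and 1 leukocyte, 1 keratinocyte and 1 neural marker passed the filter. CD68, a lysosomal protein of macrophages, lay at 23.1 to 30.8 RPKM in DMSO and 21.2 to 31.0 RPKM after merbarone. KRT10 lay at 5.46 to 6.34 and 5.19 to 6.37 RPKM, and TUBB3, a tubulin of neurons, at 8.42 to 14.0 and 9.05 to 13.3 RPKM. Summed over each list, the levels in DMSO and after merbarone were 23.2 to 31.1 and 21.4 to 31.4 RPKM for leukocytes, 9.16 to 14.8 and 9.84 to 14.1 RPKM for neural retina, 5.50 to 6.37 and 5.26 to 6.40 RPKM for keratinocytes, and at most 0.0735 and 0.0580 RPKM for endothelium. The library totals behind the RPKM values were 26644379 to 38240706 reads in DMSO and 33668346 to 37485781 in merbarone libraries, and no 2 libraries held identical values.

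The early effect was compared with the 2 h experiment in 1 limma fit over all 10 libraries, in which treatment time, vehicle use and experiment cannot be told apart. The effect differed in 665 of 6558 genes, 10.1%, but in 107 without the pairing, in 179 without pair 1 and in 1667 without untreated replicate 1. FOS was smaller at 2 h (log2 2.04 ± 0.140 against 4.69, difference -2.65 ± 0.371, limma adjusted p = 0.00460). ZFP36 was also smaller (0.45 against 1.43, difference -0.98 ± 0.151, limma adjusted p = 0.00697). EGR1 (4.02 against 2.51), JUNB (2.40 against 1.29) and ZFP36L1 (1.10 against 0.44) were larger at 2 h, with limma adjusted p = 0.00287, 0.0371 and 0.00312. For FOSB the difference was 0.01 ± 0.348 and for DUSP1 0.42 ± 0.223, neither past the threshold (limma adjusted p = 0.987 and 0.255), and both SEs leave room for sizeable differences.

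Among named genes outside the called 8, KLF2 had an effect of 2.38 at 2 h against 0.36, PLK3 2.06 against 0.29, IER3 1.75 against 0.12, KLF10 1.52 against -0.05, and BHLHE40, a clock repressor, 1.93 against 0.13. DUSP6 had opposite signs, 0.35 at 30 min and -0.69 at 2 h (difference -1.04 ± 0.120). Of 53 immediate-early genes tested in this fit, the effect was larger at 2 h in 26 and smaller in 4, beside 4.70% larger and 5.44% smaller of all genes in the fit. Of 67 named genes tested, 28 differed, beside 10.1% of all genes in the fit. Of the 28, 11 also passed without the pairing: FOS, KLF2, PLK3, PPP1R15A, BHLHE40, KLF6, KLF10, IER3, IER5, HBEGF and DUSP6. EGR1, ZFP36, JUNB, ZFP36L1 and JUN did not pass without it (limma adjusted p = 0.361, 0.172, 0.167, 0.0751 and 0.0617).

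**Figure D5:**
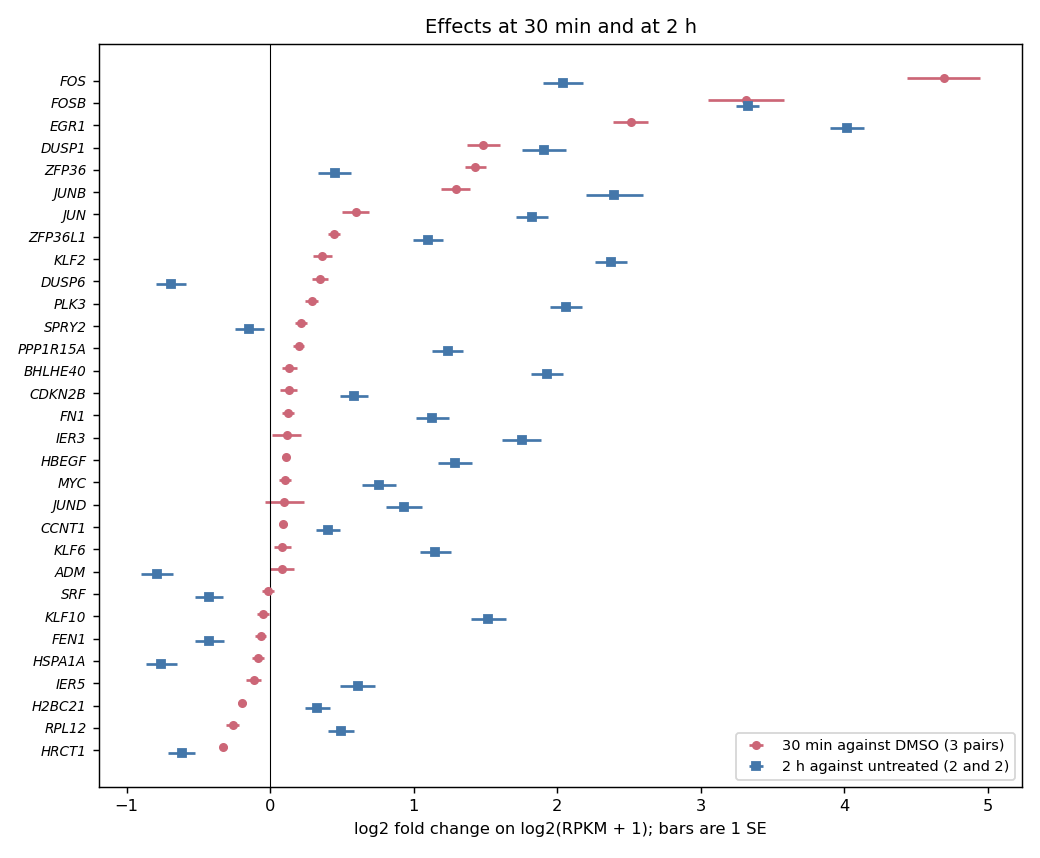
Log2 fold change on log2(RPKM + 1) at 30 min against DMSO (red, 3 pairs) and at 2 h against untreated cells (blue, 2 and 2) for 31 named genes, those called at 30 min or with a different effect at 2 h, with bars of 1 SE. FOS and ZFP36 lie further right at 30 min, and FOSB nearly coincides. At 30 min KLF2 and PLK3 lie at 0.36 and 0.29, and IER3, BHLHE40 and KLF10 lie from -0.05 to 0.13. KLF2, PLK3, IER3, BHLHE40 and KLF10 all lie above 1.5 at 2 h.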

How the data were processed

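RNA was sequenced from 6 libraries (3 merbarone, 3 DMSO) with the TruSeq Stranded mRNA kit from 150 ng of RNA, per the labels' protocols. The authors deposited 1 table per library of RPKM values for 20327 genes, per the file headers. The submitters' processing notes name Bowtie 1.2.0, DESeq2, edgeR, deepTools 2.4.1 and hg19 (GRCh37); the read counter, the annotation and the strand setting are not given in the sources used here. Whole reads were recovered from the RPKM steps for 100% of the 17680 genes above 0 (within 0.001 read, with a proportionally wider margin for genes of many reads). Symbols were matched to 19637 genes through a GENCODE annotation on GRCh37, which also gave gene spans and the exons used for GC content.

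Differences in log2(RPKM + 1) were tested with limma 3.58.1 (R 4.3.3; lmFit, eBayes with trend), two-sided, with Benjamini-Hochberg adjustment and a threshold of 0.05, over genes that averaged 1 RPKM or more. Fold changes on this scale understate those of low genes. The replicate number was a block. Deviations from the group means correlated at 0.925, 0.646 and 0.605 for same-numbered libraries, and at -0.716 to 0.365 for libraries of other numbers. The labels do not say what the numbers share. On simulated data with known changes for 6487 genes, all 100 genes changed by log2 0.5 and all 100 changed by log2 1 were called, as were 26 unchanged genes. The changed genes were drawn from better expressed genes, and the spread between libraries was set by a fixed dispersion of 0.005. JUN differed by 0.60 in the real data and was not called (limma adjusted p = 0.377), so the simulation does not give the detection limit of these libraries. At 30 min 12 alternatives were run, and 11 for the difference between times. Python 3.11.15, NumPy 2.4.6 and pandas 2.3.3 did the rest.

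Named genes were those past the threshold, the 10 largest rises and 10 largest falls with all pairs in 1 direction, the tested member of each of 43 lists with the largest absolute difference, and a set of immediate-early and topoisomerase genes, such as ATF3; NR4A2 and VMP1, called on reads, and genes given as examples of a list or overlapping a called gene, were named after their values were seen. The members and lists were chosen with earlier results of these data known. No other column was used.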

Additional observations from a re-analysis of the deposited data

Results flagged for a closer look

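The effect at 2 h minus that at 30 min, in log2(RPKM + 1), was taken from the fit over all 10 libraries. It passed limma's threshold for 28 of 67 named genes tested, beside 665 of 6558 genes (10.1%) in the fit. Many named genes were chosen by their 30 min difference or with earlier results known, so the 28 are not a neutral count. Time, control and experiment cannot be told apart in this fit, and 11 of the 28 also passed without the pairing. Among transcription factors the difference was -2.65 for FOS, 1.51 for EGR1, 1.23 for JUN, 1.11 for JUNB, 0.83 for JUND, 2.01 for KLF2, 1.06 for KLF6, 1.57 for KLF10, 1.79 for BHLHE40, 0.65 for MYC and -0.41 for SRF. Among regulators of mRNA decay and signalling it was -0.98 for ZFP36, 0.66 for ZFP36L1, -1.04 for DUSP6, -0.36 for SPRY2, 1.64 for IER3 and 0.73 for IER5. It was 1.77 for the kinase PLK3, 1.04 for PPP1R15A, 1.18 for the growth factor HBEGF, -0.87 for the peptide hormone gene ADM and -0.67 for HSPA1A. It was 0.46 for the cell cycle inhibitor CDKN2B, -0.36 for the flap endonuclease FEN1, 0.31 for CCNT1, 0.53 for H2BC21, 0.75 for RPL12 and 1.01 for FN1.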

How the results depend on the processing

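The count of 8 genes called at 30 min was 1 without the replicate block (no replicate block; FOS), 0 with no filter on low RPKM (limma, 17355 genes, 780 at an unadjusted p under 0.05) and 13 with voom on recovered reads. It was 7 or 8 under quantile normalization, median scaling, eBayes without trend, a pseudocount of 0.1, a filter at 5 RPKM and removal of GC dependence with the block, and 6 to 13 when 1 replicate was left out. FOS was called under 11 of 12 alternatives, all but the one with no filter. The limma adjusted p of HRCT1 was 0.0628 without trend, and its range over alternatives was 0.0101 to 1.00.

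The count of 665 genes whose effect differed between 2 h and 30 min (308 larger at 2 h, 357 smaller) was 107 without the replicate block in the 30 min experiment, 1255 with it in both experiments, and 179, 299 and 283 without pair 1, 2 or 3 of the 30 min experiment. Leaving out 1 library of the 2 h experiment gave 1667 and 856 for untreated replicates 1 and 2, and 240 and 287 for merbarone replicates 1 and 2. The cause was not tested.

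Small uncalled differences changed sign. With GC dependence removed, SRF was 0.0153, TOP2B -0.00589 and TUBB3 0.00792. When 1 pair was left out, ADM ranged from -0.000441 to 0.208, CD68 from -0.0637 to 0.000729, CDH2 from -0.00365 to 0.0339, COX5B from -0.188 to 0.0168, DUSP4 from -0.00981 to 0.0836, FTH1 from -0.206 to 0.125, IER3 from -0.0165 to 0.257, JUND from -0.0981 to 0.288, KRT10 from -0.0532 to 0.00932, SRF from -0.0540 to 0.0162, TOP2A from -0.0314 to 0.110, TOP2B from -0.00974 to 0.0549 and TUBB3 from -0.0682 to 0.0612. Every listed setting was run. With 3 pairs the median SE was 0.0367, and differences well above that size were not called. Among the 8 called genes HRCT1 had the smallest absolute difference, -0.33, while JUN at 0.60 was not called (limma adjusted p = 0.377). An uncalled gene is therefore not shown to be unchanged.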
